A study of Rattus norvegicus with 4 samples.

Results

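Interferon response genes were read on 4 arrays of rat soleus, a slow postural muscle of the hindlimb. The set holds 9 genes, Stat2, Irf1, Irf7, Irf9, Isg15, Ifit3, Mx1, Mx2 and Gbp2, out of 14217 genes named on the array. Every probe set annotated to exactly 1 of these symbols was taken, which gave 12 probe sets of 20826 with a single gene symbol, with 2 each for Stat2, Irf9 and Mx2. All 12 lay above a floor of 78.9 signal units on all 4 arrays, where a signal unit is the authors' scaled array brightness and the floor is the 40th percentile of all signals.

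The 4 groups were genistein diet denervated, genistein diet sham, control diet denervated and control diet sham. All came from male Wistar rats that were 10 weeks old at the start and carry an age label of 14 weeks. The genistein group ate an AIN-93G diet with 0.5 g of genistein per kg (0.05%) for 24 days, and the control group a modified AIN-93G diet with corn oil in place of soybean oil. Genistein is a soy isoflavone that binds oestrogen receptors. The left sciatic nerve was cut out on day 14, the right leg had sham surgery in the same operation, and the soleus was taken 10 days later. A sham muscle therefore comes from a rat whose other leg was denervated. The RNA of 8 rats was pooled per group on 1 array, so no value here has a replicate, an error or a test, and counts of genes past 2-fold describe these 4 pools.

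Interferons are secreted cytokines first known for antiviral defence. Type I interferons signal through JAK kinases to a complex that holds STAT2 and IRF9, binds interferon-stimulated response elements (ISRE) and switches on genes such as Isg15, the Ifit family and the Mx proteins. Interferon-gamma acts through gamma-activated sites (GAS) and induces IRF1, guanylate-binding proteins and antigen presentation. In muscle these genes are expressed by fibres and by resident immune and vascular cells.

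The treatment field of 2 samples, control denervated and genistein sham by title, goes against their titles, and groups were taken from the titles. Every comparison here uses such an array. All 6 genes chosen to check the operation (Chrna1, Chrng, Myog, Myh4, Gadd45a, Runx1) were at least 2-fold higher in the denervated pool of each diet, with list medians of 3.44 log2 units on genistein and 3.36 on the control diet. All 8 muscle fibre markers (Acta1, Ckm, Myh7, Tnni1, Mb, Actn2, Myl2, Tnnt1) were above the floor. Which diet an array belongs to has no such check. The trimmed mean signal was 500.2 units on each array, and 58.5% to 60.8% of probe sets lay above the floor. Actin probe sets at the 3′ and 5′ ends, whose ratio reads RNA integrity, gave 2.76 in genistein denervated and 2.32 in genistein sham muscle, and 3.79 in control denervated and 2.08 in control sham muscle. The control denervated pool was thus the highest in the actin ratio. The same ratio for GAPDH gave 1.13 in genistein denervated and 1.2 in genistein sham muscle. It gave 1.14 in control denervated and 1.24 in control sham muscle, so there the control sham pool was the highest. The part of RNA integrity in the values of any pool was not tested. Scaling on the spike-in controls (BioB, BioC, BioD and Cre) instead of the authors' scaling shifts the median log2 ratio of all genes for denervation to 0.53 on genistein and 0.36 on the control diet. It also moves the share of higher genes among those past 2-fold to 90% from 43% on genistein and to 77.9% from 39.8% on the control diet. Whether these controls follow the amount of RNA per muscle was not tested.

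The question put to these genes is whether nerve loss or the diet altered the interferon response of the soleus. The 9 genes had no common direction, and 3 of them stood apart. Irf1 was about 2-fold higher in denervated muscle on both diets. Mx2 was lower in denervated muscle on both diets on its brighter probe set, while its other probe set was lower on genistein and level on the control diet. Gbp2 was higher in the genistein denervated pool than in each of the other 3. The plot of signals by array gives every value.

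**Figure D1:**
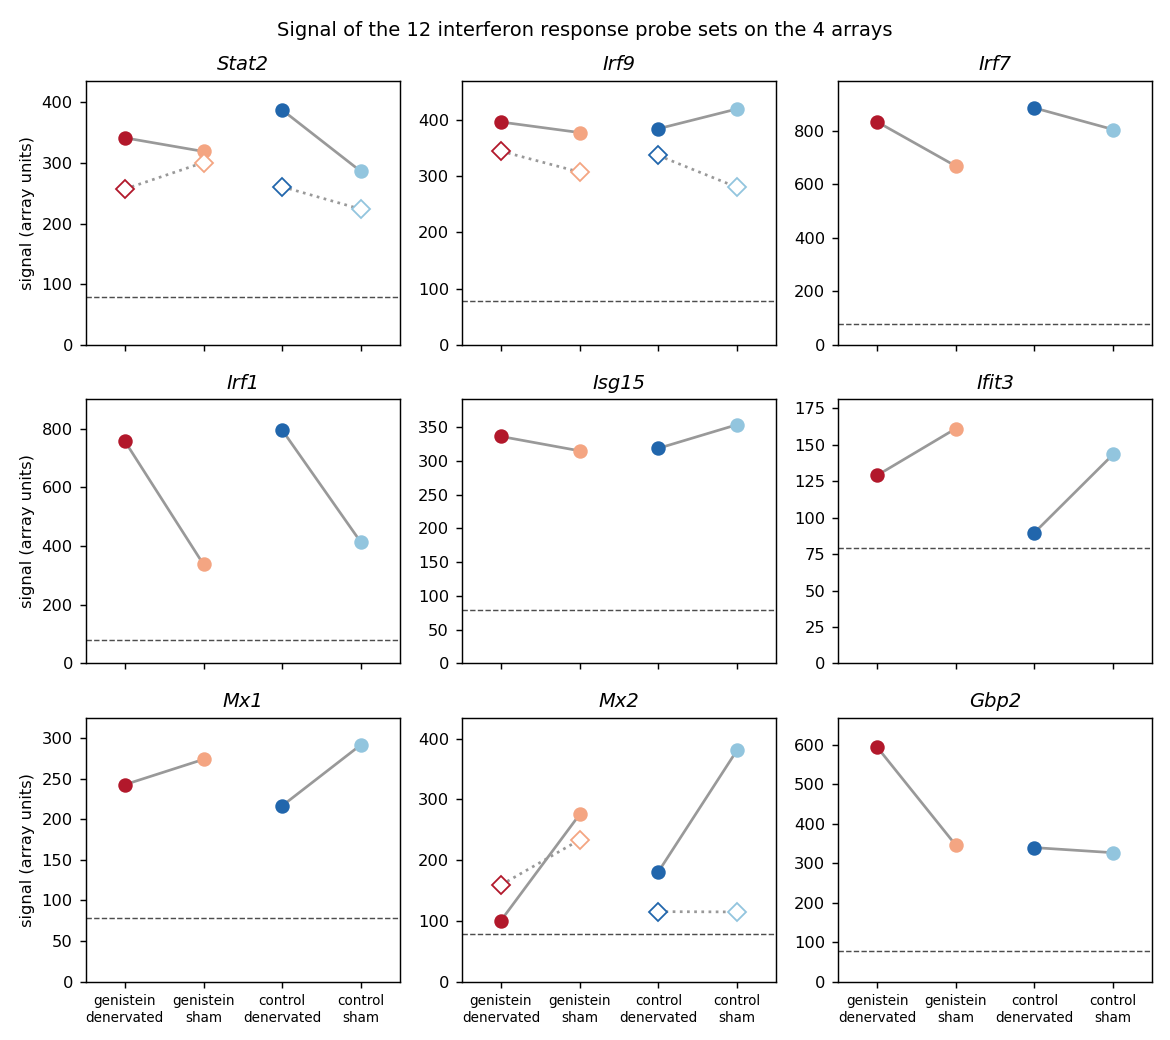
Signal in array units (vertical axes from 0) of the 9 interferon response genes on the 4 arrays, 1 array of pooled RNA per group, with no error bars because there are no replicates. Filled circles are the brightest probe set of a gene, open diamonds the other probe set, lines join the denervated and sham pools of a diet, and the dashed line is the floor of 78.9 units. Irf1 is high in both denervated pools, and the 2 Mx2 probe sets differ in order.

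The relay genes come first. Stat2, the STAT subunit particular to type I and III interferon signalling, read 342 units in genistein denervated muscle against 319 in genistein sham muscle. On the control diet it read 388 units in denervated muscle against 286 in sham muscle. The log2 ratios for denervation were 0.10 on genistein and 0.44 on the control diet, and the other Stat2 probe set gave -0.23 and 0.22, so its direction on genistein depends on the probe set.

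Irf9, the DNA-binding partner of STAT2, was nearly flat. It read 396 and 377 units in genistein denervated and sham muscle and 384 and 419 units in control denervated and sham muscle. Its log2 ratios were 0.07 on genistein and -0.13 on the control diet, with 0.16 and 0.26 on its other probe set. Both signs turn with scaling, to -0.03 on genistein under quantile normalization and 0.25 on the control diet under spike-in scaling.

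Irf7, the factor that amplifies type I interferon production, was slightly higher in both denervated pools. It read 834 units in genistein denervated against 669 in genistein sham muscle, and 886 in control denervated against 805 in control sham muscle. The log2 ratios were 0.32 and 0.14, both smaller than the spread between probe sets of a gene described below.

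Irf1, a transcription factor induced by interferon-gamma and inflammatory cytokines, had the highest denervation ratio of the set on both diets. It read 757 units in genistein denervated muscle against 337 in genistein sham muscle. On the control diet it read 795 units in denervated muscle against 413 in sham muscle. Both denervated pools were above both sham pools. Denervated muscle was 2.25-fold higher on genistein (log2 ratio 1.17) and 1.93-fold higher on the control diet (0.95), just inside the 2-fold threshold on genistein and just outside it on the control diet. These ratios stood at percentile 96.4 of all measured genes on genistein and 94.5 on the control diet.

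To show how the members' start regions differ, 4 promoters are printed, from 250 bases before to 50 bases after the gene start, in the direction of the gene, from RefSeq on build GRCr8. Irf1 carries the letters of a GAS, and Irf7, Ifit3 and Gbp2 those of an ISRE core, in capitals.
Irf1, GRCr8 chr10:38417685-38417984, plus strand: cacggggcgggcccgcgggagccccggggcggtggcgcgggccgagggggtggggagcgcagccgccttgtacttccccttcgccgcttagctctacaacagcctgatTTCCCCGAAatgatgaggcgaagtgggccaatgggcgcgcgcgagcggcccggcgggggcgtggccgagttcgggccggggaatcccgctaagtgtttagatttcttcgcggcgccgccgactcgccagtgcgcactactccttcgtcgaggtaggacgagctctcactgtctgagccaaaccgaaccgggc
Irf7, GRCr8 chr1:205799974-205800273, minus strand: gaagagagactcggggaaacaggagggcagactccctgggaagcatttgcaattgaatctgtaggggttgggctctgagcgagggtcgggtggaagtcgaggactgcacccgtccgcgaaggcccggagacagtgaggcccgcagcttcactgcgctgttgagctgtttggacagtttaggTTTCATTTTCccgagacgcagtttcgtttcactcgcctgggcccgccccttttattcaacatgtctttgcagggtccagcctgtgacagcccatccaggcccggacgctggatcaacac
Ifit3, GRCr8 chr1:241527076-241527375, plus strand: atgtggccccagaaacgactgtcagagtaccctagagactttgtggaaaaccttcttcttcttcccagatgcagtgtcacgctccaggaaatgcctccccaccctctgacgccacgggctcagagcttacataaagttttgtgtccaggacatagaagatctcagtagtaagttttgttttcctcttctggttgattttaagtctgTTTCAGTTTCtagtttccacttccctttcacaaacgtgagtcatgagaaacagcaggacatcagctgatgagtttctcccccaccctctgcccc
Gbp2, GRCr8 chr2:234005477-234005776, plus strand: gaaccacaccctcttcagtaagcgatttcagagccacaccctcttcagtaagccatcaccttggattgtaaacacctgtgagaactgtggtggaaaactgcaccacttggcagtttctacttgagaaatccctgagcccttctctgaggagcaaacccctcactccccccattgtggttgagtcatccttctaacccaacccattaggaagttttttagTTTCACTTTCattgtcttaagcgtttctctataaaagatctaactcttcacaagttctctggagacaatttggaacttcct

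The GAS was searched as TTCNNNGAA, which reads the same on both strands, and the ISRE core as GAAA, then any 2 bases, then GAAA, on both strands. In Irf1 the match was TTCCCCGAA, beginning 142 bases before the start. The 3 ISRE matches were on the opposite strand, and read TTTCATTTTC in Irf7, TTTCAGTTTC in Ifit3 and TTTCACTTTC in Gbp2 in the printed direction, and begin 69, 44 and 31 bases before the start. Of the 9 members, 7 had a promoter in the table, all but Isg15 and Mx2. Of those 7, 3 held an ISRE core and 2 a GAS (Irf1 and Irf9), none held both, so no matches overlapped, and Stat2 and Mx1 held neither in this window. Across all 33469 promoters of this length 3.92% held the ISRE core and 8.87% the GAS.

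The antiviral effectors showed no common direction after denervation. Isg15, a ubiquitin-like protein that is coupled to other proteins, read 336 and 315 units in genistein denervated and sham muscle and 319 and 354 units in control denervated and sham muscle. Its 4 signals spanned 1.12-fold from lowest to highest. The log2 ratios of 0.09 on genistein and -0.15 on the control diet change sign under quantile normalization (-0.01) and spike-in scaling (0.23).

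Ifit3, which belongs to a family of antiviral proteins with tetratricopeptide repeats, was lower in both denervated pools. It read 129 units in genistein denervated against 161 in genistein sham muscle, and 89.7 in control denervated against 143 in control sham muscle. The log2 ratios were -0.32 on genistein, which turns to 0.22 under spike-in scaling, and -0.68 on the control diet. The lowest of these signals is close to the floor.

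Mx1, an antiviral dynamin-like GTPase, read 242.5 units in genistein denervated against 274 in genistein sham muscle, and 217 in control denervated against 292 in control sham muscle. Its log2 ratios were -0.17 on genistein, which turns to 0.36 under spike-in scaling, and -0.43 on the control diet. The 4 signals spanned 1.35-fold.

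Mx2, the related dynamin-like GTPase, had 2 probe sets that the annotation assigns to the same transcript. The brighter probe set read 101 units in genistein denervated against 275 in genistein sham muscle, and 181 in control denervated against 381 in control sham muscle. Both denervated pools were below both sham pools, by 2.73-fold on genistein (log2 ratio -1.45) and 2.11-fold on the control diet (-1.07). The other probe set read 159 units in genistein denervated against 234 in genistein sham muscle, and 115 units in both control pools. It gave log2 ratios of -0.55 on genistein and 0.01 on the control diet, so the 2 probe sets disagree on the control diet. Probe letters were not used here, and a probe set of an Mx, Ifit or Gbp gene may also read a close relative.

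Gbp2, a guanylate-binding protein that attacks the membranes around intracellular microbes, read 594 units in genistein denervated muscle against 346 in genistein sham muscle. On the control diet it read 339 units in denervated against 326 in sham muscle. The genistein denervated pool stood alone, and the other 3 pools lay close together. The log2 ratios for denervation were 0.78 on genistein and 0.06 on the control diet.

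Over the set, 1 of 9 members was at least 2-fold higher in denervated muscle on genistein (Irf1) and 1 lower (Mx2), beside 4.96% higher, 6.57% lower and 11.5% either way among all 10810 measured genes. On the control diet 0 were higher and 1 was lower (Mx2), beside 5.04% higher, 7.63% lower and 12.7% either way among 10755 genes. Counts of 1 and 0 among 9 members are near these shares. These calls moved with the settings, since on the control diet Irf1 passed 2-fold under median scaling (1.03) and Mx2 no longer did (-0.99). The members' median log2 ratio was 0.09 on genistein and -0.13 on the control diet, against 0.02 and -0.0029 over all genes. The members' medians change sign under quantile normalization on genistein (-0.01) and under spike-in scaling on the control diet (0.25). As a guide to scatter, log2 ratios of probe sets of the same gene had an SD of 0.36 on genistein and 0.35 on the control diet about the gene's mean, over 5373 probe sets of 2310 genes. That SD leaves out scatter between pools.

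**Figure D2:**
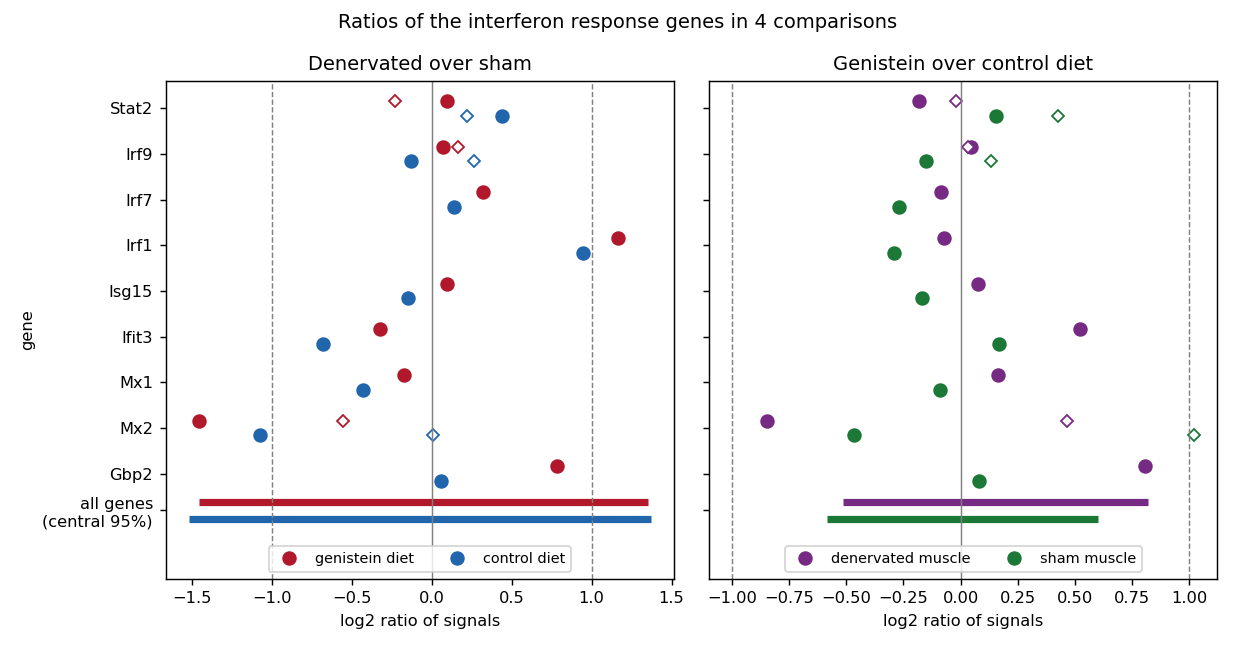
Log2 ratio of signals (horizontal axes) for the 9 genes, denervated over sham by diet on the left and genistein over control diet by operation on the right. Filled circles are the brightest probe set, open diamonds the other probe set, dashed lines mark 2-fold, and the bars below give the central 95% of all measured genes. In denervation most members lie between the dashed lines, with Irf1 at 1.17 and 0.95 and Mx2 at -1.45 and -1.07.

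The next question is whether the diet moved these genes. In denervated muscle 0 of 9 members differed by 2-fold or more between the diets, beside 1.02% higher on genistein, 0.124% lower and 1.15% either way among 10479 genes. Between these 2 denervated pools Gbp2 had the highest diet ratio of the set, with 594 units on genistein against 339 on the control diet. That is 1.75-fold (log2 ratio 0.81, percentile 97.4 of all genes). Ifit3 followed at 129 against 89.7 units (0.52).

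Mx2 had the lowest diet ratio on its brighter probe set, with 101 units on genistein against 181 on the control diet (log2 ratio -0.85). That ratio ranked 10446 of 10479 genes, but the other Mx2 probe set gave 0.47 in the opposite direction. Stat2 was at -0.18 and Mx1 at 0.16 in log2 ratio. Irf1 (-0.07), Irf7 (-0.09), Irf9 (0.04) and Isg15 (0.08) were close to 0, and each of these 4 changes sign under at least 1 other scaling. The median of the 9 was 0.04 against 0.00022 over all genes, and it turned to -0.09 under median scaling, which moves the median of all genes by -0.13. The probe sets of a gene had an SD of 0.25 in this comparison.

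In sham muscle 0 of 9 members passed 2-fold in either direction, beside 0.324% higher on genistein, 0.287% lower and 0.61% either way among 10819 genes. Irf1 read 337 units on genistein against 413 on the control diet (log2 ratio -0.29), and Irf7 669 against 805 units (-0.27). Ifit3 (0.17), Stat2 (0.16) and Gbp2 (0.08) were above 0, and Isg15 (-0.17), Irf9 (-0.15) and Mx1 (-0.09) below 0. These values, from the brightest probe sets, were all smaller than the SD of 0.26 between probe sets of a gene. The other Stat2 probe set gave 0.43, more than that SD, and the other Irf9 probe set gave 0.13, of opposite sign. Mx2 gave -0.47 on its brighter probe set and 1.02 on the other, at 275 against 381 units and at 234 against 115 units. The median of the 9 was -0.15, against 0.0024 over all genes.

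The denervation effect on genistein minus that on the control diet was above 0 for 7 of 9 members, against 49.5% of 11151 genes, with a median of 0.22 against -0.0037 over all genes. Irf9, 1 of those 7, gave -0.10 on its other probe set. In the wider lists read below, the difference was above 0 for 28 of 37 other interferon-induced genes (median 0.21) and all 10 class II genes (0.48). It was above 0 for 13 of 14 leukocyte markers (0.68), 10 of 17 class I genes (0.13) and 2 of 7 sensor genes (-0.02). Past 1 log2 unit there were 0 of the 9, beside 1.88% higher, 0.708% lower and 2.59% either way among all genes. Gbp2 (0.72) and Ifit3 (0.36) were the highest, and Mx2 (-0.38) and Stat2 (-0.34) were below 0. The SD between probe sets of a gene was 0.34 here, more than the members' median. The Mx2 difference turns to 0.47 with a floor at the 60th percentile. Each of these comparisons shares an array with others, so their values are not independent of each other.

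The wider pathway was read from lists of genes by role, upstream first. Transcripts of the interferons themselves were at the bottom of the scale, with Ifnb1 at 5.5 to 12.8 units, Ifng at 1.4 to 18.1 and Ifnk at 7 to 35.8, all below the floor on all 4 arrays. The receptors were measured. Ifngr1, the ligand-binding subunit of the interferon-gamma receptor, had log2 ratios for denervation of 0.64 on genistein and 0.41 on the control diet, and its partner Ifngr2 had 0.57 and 0.40. The type I receptor subunits Ifnar1 and Ifnar2 had -0.06 and -0.0038 on genistein and -0.03 and -0.07 on the control diet on their brightest probe sets. Their other probe sets disagreed, from -0.36 to 0.76 on genistein and -0.29 to 0.84 on the control diet for Ifnar1, and at -0.49 and 0.42 for Ifnar2. The other Ifngr2 probe set gave 0.24 and 0.68. Among the 5 measured ligand and receptor genes, 0 passed 2-fold in either denervation comparison, with medians of 0.50 and 0.40. Over all genes 11.5% passed either way on genistein and 12.7% on the control diet.

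In the signal relay, 1 of 13 measured genes was past 2-fold upward on each diet, beside 4.96% of all genes on genistein and 5.04% on the control diet. Jak2, a kinase of the interferon-gamma receptor and of many cytokine and hormone receptors, read 623 units in genistein denervated against 234 in genistein sham muscle, and 730.3 units in control denervated against 215 in control sham muscle. That is 2.66-fold higher on genistein and 3.40-fold higher on the control diet. Tyk2, a kinase of the type I receptor, had log2 ratios of 0.61 and 0.68 and Jak1 0.12 and 0.21, with 0.28 and 0.61 on its other probe set. The inhibitor Usp18, which removes Isg15 from proteins and is itself interferon-induced, had -0.15 and -0.36.

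Of 7 measured nucleic acid sensor genes, 1 was past 2-fold downward on each diet, beside 6.57% and 7.63% of all genes. Mavs, the mitochondrial adaptor that relays RNA sensing to interferon production, read 317 units in genistein denervated against 2369 in genistein sham muscle, and 497 in control denervated against 2266 in control sham muscle. It was 7.48-fold lower on genistein and 4.56-fold lower on the control diet, and its other probe set had log2 ratios of -2.35 and -2.55. Tbk1, the kinase downstream of Mavs, had 0.32 and 0.28.

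Of 48 other interferon-induced genes listed, 38 were on the array. On genistein 0 of 36 measured genes passed 2-fold and the median log2 ratio for denervation was 0.04. Among all genes 11.5% passed 2-fold either way on genistein and 12.7% on the control diet. On the control diet 1 of 35 passed, Irgm, an immunity-related GTPase, at 412 units in denervated against 193 in sham muscle (2.14-fold, 1.70-fold on genistein), and the median was -0.08. Both medians change sign with scaling, to -0.02 under quantile normalization on genistein and 0.02 under median scaling on the control diet. The ratios ran from -0.68 (Uba7) to 0.79 (Igtp) on genistein and from -0.84 (Bst2) to 1.1 (Irgm) on the control diet.

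Genes of class I antigen presentation and the immunoproteasome stood higher in denervated muscle. On genistein 4 of the 17 measured passed 2-fold upward and 0 downward, and 16 were above 0, with a median of 0.67, beside 4.96% past 2-fold upward and 51.7% above 0 over all genes. On the control diet 2 of 17 were higher, 0 lower and 14 above 0, with a median of 0.47, beside 5.04% and 49.8% over all genes. The control diet count is 4 under median scaling, and under spike-in scaling the counts are 11 on genistein and 7 on the control diet. Nlrc5, the transactivator of class I genes, read 231 units in genistein denervated and 333 units in control denervated muscle and lay under the floor in the sham pool of each diet, so it was at least 2.93-fold and at least 4.23-fold higher. Psmb9, a catalytic subunit of the immunoproteasome, read 1301 units in genistein denervated against 468 in genistein sham muscle, and 1135 in control denervated against 459 in control sham muscle. Tap2, a subunit of the peptide transporter, was 2.45-fold higher on genistein and 1.97-fold higher on the control diet. RT1-S3, a rat class Ib histocompatibility gene, was 2.30-fold and 1.38-fold higher. Its other probe sets gave log2 ratios from 0.78 to 1.02 on genistein and from 0.0021 to 0.56 on the control diet. The class I light chain B2m had 0.40 and 0.47 on its brighter probe set and 1.57 and 1.59 on the other.

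**Figure D3:**
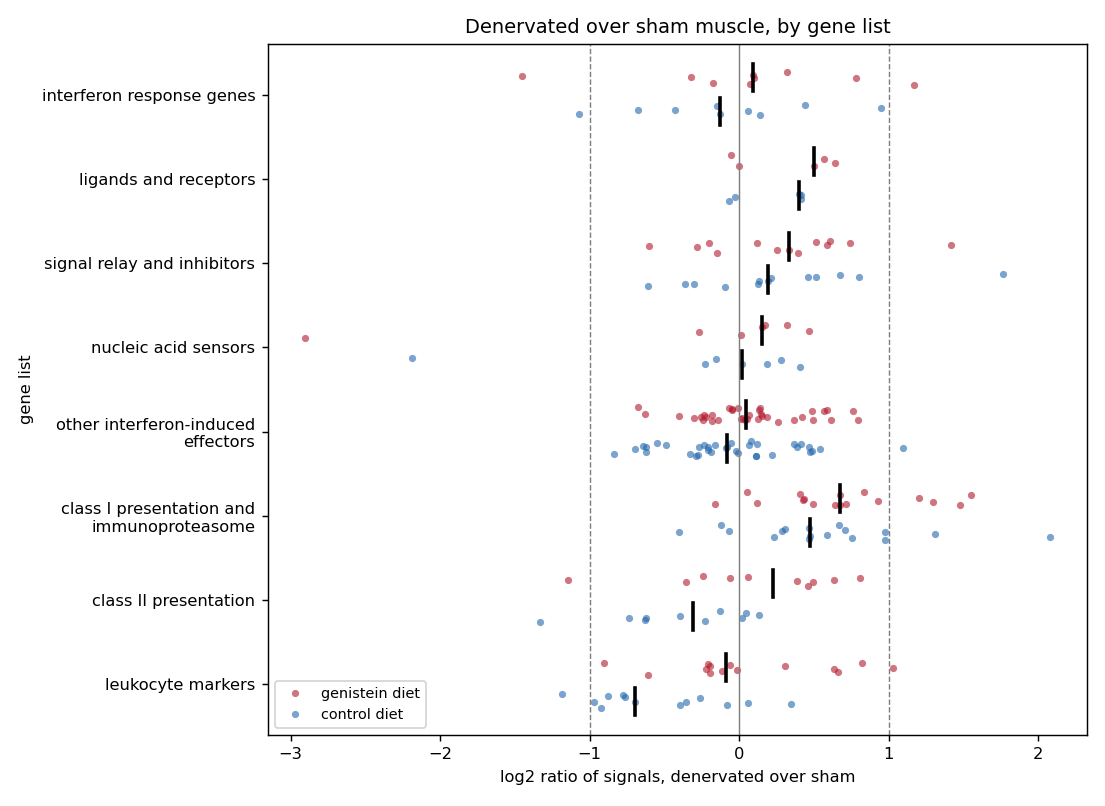
Log2 ratio of signals, denervated over sham (horizontal axis), for each measured gene of 8 lists, on genistein (red, upper) and on the control diet (blue, lower). Each point is a gene on 1 pair of arrays, black bars are list medians and dashed lines mark 2-fold. The class I list has medians of 0.67 and 0.47, and the interferon response genes 0.09 and -0.13.

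In denervated muscle class II presentation genes and leukocyte markers had higher diet ratios than the interferon response genes. All 10 class II genes were above 0 on genistein over control, with a median of 0.63, and 1 passed 2-fold, RT1-Ba, a class II alpha chain, at 1285 units on genistein against 638 on the control diet (log2 ratio 1.01). It no longer passed under median scaling (0.88) or quantile normalization, and another RT1-Ba probe set gave 0.67. Leukocyte markers were above 0 for 11 of 12 measured genes with a median of 0.83, and 4 passed 2-fold, Cd163 (2.48-fold), Ptprc (2.46-fold), Cd14 (2.12-fold) and S100a8 (2.10-fold), where 1.02% of all genes were that much higher and 50% were above 0. Under median scaling Cd14 (0.95) and S100a8 (0.94) no longer passed, and under quantile normalization neither did (0.95 and 0.94). The other Ptprc probe set gave 0.33. The summed signal of the 20 leukocyte markers was 7771 units in genistein denervated and 8112 in genistein sham muscle, and 4588 in control denervated and 7833 in control sham muscle. Of these sums Lyz2 alone gave 4287.5 units in genistein denervated and 5006.9 in genistein sham muscle. It gave 2587 in control denervated and 5066.9 in control sham muscle, so the sums mostly read 1 gene. The T, B and natural killer cell markers Cd3e, Cd8a, Cd79b, Ms4a1 and Nkg7, and Itgax, were below the floor on all 4 arrays. The T cell marker Cd3g was above it throughout, at 95.6 units in genistein denervated and 179 in genistein sham muscle, and 96.9 in control denervated and 220.4 in control sham muscle, and Cd4 was above it in the sham pools only. In the diet comparison of denervated muscle the other interferon-induced genes had a median of 0.16 and class I genes 0.13, which is -0.0030 under median scaling. Markers of other cells were higher on genistein in this pair of pools too, with a median of 0.68 for fibroblast markers (6 of 6 above 0) and 0.54 for endothelial markers (6 of 7 above 0), while all 8 muscle fibre markers were below 0 with a median of -0.26. These lists stood apart in the same pair of pools in which Gbp2 and Ifit3 were higher, and their part in those values was not tested. More cells of a type and more RNA per cell cannot be told apart in pooled whole muscle.

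In denervation on the control diet the leukocyte list had a median of -0.70 with 11 of 13 measured markers below 0, beside 49.8% of all genes above 0. Fibroblast markers (0 of 6 above 0, median -1.19) and endothelial markers (0 of 7, median -0.89) were lower still. On genistein the medians were -0.09 for leukocyte, -0.49 for fibroblast and -0.45 for endothelial markers. All 8 muscle fibre markers were also below 0 in denervation on each diet, with medians of -0.88 on genistein and -0.69 on the control diet. On genistein that median was the lowest of these lists. The part of these lists in the denervation values of the members was not tested.

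**Figure D4:**
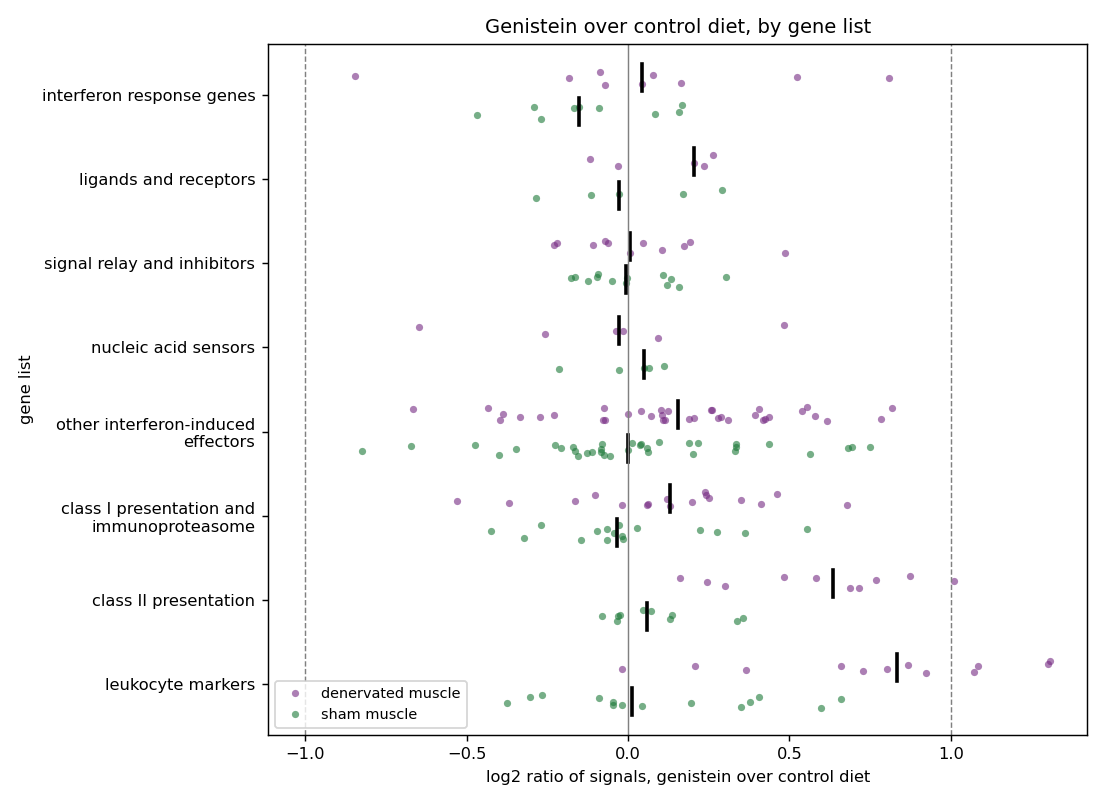
Log2 ratio of signals, genistein over control diet (horizontal axis), for each measured gene of the same 8 lists, in denervated muscle (purple, upper) and in sham muscle (green, lower). Each point is a gene on 1 pair of arrays, black bars are list medians and dashed lines mark 2-fold. In denervated muscle the class II list and the leukocyte markers sit to the right, with medians of 0.63 and 0.83, and the interferon response genes centre at 0.04.

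The genes whose 4 signals most resembled the members' median profile were Bles03, Gpnmb, Hacd1, Rabl6 and Acly, at Euclidean distances of 0.02 to 0.04 log2 units over the 4 arrays, among 9362 genes above the floor throughout. That profile is nearly flat, with centred values from -0.06 in genistein sham to 0.09 in control sham muscle. Of the members, Isg15 (0.01) and Irf9 (0.02) were closest to it, and Mx2 (1.41) and Irf1 (1.09) farthest.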

How the data were processed

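Each of the 4 groups was a pool of RNA from 8 rats on 1 Affymetrix array labelled with biotin. Values were intensity on a linear scale, as deposited, and GCOS 1.1 is named in the submitters' processing notes. What the arrays were scaled to is not stated in these sources. Of 31099 probe sets 57 were controls and stayed out. By GEO's platform annotation 20826 had 1 gene symbol and were named, 436 had several and 9780 had none listed. The brightest probe set by mean log2 signal stood for its gene. Signals below the 40th percentile (78.9 units) were raised to it, and a gene was measured when at least 1 array compared was above it. Where 1 side is at the floor the fold is given as a minimum.

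With 1 array per group no test was possible, and the number of arrays limits the precision. The members and lists were chosen with earlier results of these data known, and list members were named when past 2-fold for denervation or diet, at most 4 per list and comparison. Leukocyte, endothelial, fibroblast and muscle fibre markers past 2-fold for denervation were not named as such. The other genes named from the lists (the interferons and their receptors, Tyk2, Jak1, Usp18, Tbk1, Uba7, Igtp, Bst2, Cd3g, Cd4, B2m, RT1-DMa and Ifi30) were chosen after their values were seen. The 5 genes most like the members were taken by the smallest Euclidean distance between centred log2 signals. Ratios were computed with Python 3.11.15, numpy 2.4.6 and pandas 2.3.3, and the steps were tested on simulated data. Alternatives were median, quantile and spike-in scaling, floors at the 20th and 60th percentile, no floor with a pseudocount of 1, and the mean of a gene's probe sets. Promoters were from RefSeq, with members matched by gene identifier. No genome build is given for the array files, so the only coordinates reported are those of the RefSeq promoters on GRCr8.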

Additional observations from a re-analysis of the deposited data

Results flagged for a closer look

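Some members had opposite signs in the paired comparisons. These differences were not tested, since each value rests on 1 pair of arrays. In log2 ratio for denervation, Irf9 was at 0.0698 on genistein and -0.126 on the control diet, and Isg15 at 0.0944 and -0.150. In log2 ratio for diet, Irf9 was at 0.0441 in denervated and -0.152 in sham muscle, Isg15 at 0.0776 and -0.167, Mx1 at 0.164 and -0.0914, and Stat2 at -0.182 and 0.157. The other Irf9 probe set had no opposite signs, with 0.16 and 0.26 for denervation on genistein and on the control diet, and 0.03 and 0.13 for diet in denervated and in sham muscle. The other Stat2 probe set gave -0.02 for diet in denervated and 0.43 in sham muscle. Except for that 0.43, all of these log2 ratios are smaller than the SD between probe sets of a gene. That SD was 0.36 and 0.35 for denervation and 0.25 and 0.26 for diet.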

How the results depend on the processing

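Of 91 recomputed medians and counts of members, 80 stayed within the SD between probe sets, or within 1.5-fold for counts, and 11 did not. Under spike-in scaling the denervation median was 0.63 on genistein and 0.25 on the control diet, with 2 members at least 2-fold higher and 0 lower on genistein, and 1 higher and 0 lower on the control diet. Over all genes that scaling takes those at least 2-fold higher from 536 to 2075 on genistein and from 542 to 1311 on the control diet. Under median scaling the control diet had 1 member higher and 0 lower. With the 60th percentile floor (217.5 units) 0 members were lower on either diet, because that floor lies above both denervated Mx2 signals, and with the mean of probe sets 0 were lower on the control diet. Counts for the diet comparisons stayed at 0 in both directions under these alternatives. Of 309 recomputed ratios of single members 24 moved by more than the SD between probe sets, under spike-in scaling except for Mx2, which also moved with the 60th percentile floor and with the mean of probe sets (-1.0 and -0.53 for denervation on genistein and on the control diet, -0.19 and 0.28 for diet in denervated and in sham muscle). No ratio past 2-fold changed sign. Of 132 recomputed medians of other lists 22 moved. For those lists spike-in scaling, and for the cell type markers also median and quantile scaling, were chosen after seeing the data, as were all scalings of the genes past 2-fold in them. In denervated muscle higher genes were 89.2% of all genes past 2-fold for diet, 69.3% under median scaling and 79.1% under quantile normalization, and for the difference between diets 72.7%, 52.9% and 61.5%. No paired analysis was possible because each group is 1 array, and for the same reason no array could be left out. The detection limit of each probe set is unknown, so the floor alone marks low signals.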

Other observations

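The letters of an ISRE core were found in 19 of 32 promoters of the other interferon-induced genes and in 8 of 14 of the class I and immunoproteasome genes, against 3.92% of all promoters. They were found in 1 of 8 class II promoters, 1 of 10 of the signal relay, 1 of 6 of the sensors and 0 of 9 of the ligands and receptors. The lists with many ISRE cores had different denervation medians, 0.04 on genistein and -0.08 on the control diet for the other interferon-induced genes and 0.67 and 0.47 for the class I genes. The letters of a GAS were found in 11 of 32 and 2 of 14 of their promoters, against 8.87% of all promoters. The part of either motif in these medians was not tested. RT1-DMb, a class II peptide-loading chain, was lower in denervated muscle on both diets, at 462.5 units in genistein denervated against 1025 in genistein sham and 413 in control denervated against 1042 in control sham muscle. RT1-DMa, its partner chain, had log2 ratios of -0.24 on genistein and -0.63 on the control diet, and Ifi30, a thiol reductase of antigen processing, -0.35 and -0.63. Of the 10 class II genes 4 were below 0 on genistein and 7 on the control diet, beside 51.7% and 49.8% of all genes above 0. RT1-DMb no longer passed 2-fold under spike-in scaling (-0.61 and -0.96).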
